A study of Homo sapiens with 27 samples.

Results

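The genes of the cytosolic ribosomal proteins were taken from the read count tables by symbol: RPL or RPS followed by a number and, where present, A, X or AL, together with RPLP0, RPLP1, RPLP2 and RPSA. The rule found 78 genes in each table, out of 24379 gene symbols listed in the 22Rv1 table, 23532 in the DU145 table and 23462 in the PC3 table, and all 78 passed the filter on low counts in every fit. They comprise 44 proteins of the large subunit, 31 of the small subunit and the 3 proteins of the acidic stalk. The rule looked at symbols alone and used no measured value.

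The study compared control cells with RIPK2 knockout cells in 3 human prostate cancer lines by bulk RNA sequencing, with 27 libraries in all. RIPK2 is a kinase that relays signals from the NOD receptors of innate immunity. 22Rv1 was derived from a prostate carcinoma xenograft, DU145 was derived from a brain metastasis and PC3 from a bone metastasis. In each line, cells that received a control guide RNA (genotype labelled WT) were set against 2 RIPK2-targeted populations (genotype labelled RIPK2 knockout): gRNA 1 and gRNA 10 in 22Rv1, and gRNA 2 and gRNA 10 in DU145 and in PC3. Each group had 3 libraries. All groups went through guide delivery, the control being a single control guide. Neither how the guides were delivered, nor whether a population was 1 clone or a pool, nor whether the libraries of a group came from separate cultures is given in the sources used here, so every p-value below measures only the spread between these libraries. A guide and whatever else distinguishes its population cannot be told apart.

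Ribosomal proteins are made in matched amounts and assembled on ribosomal RNA in the nucleolus, and their messenger RNAs are among the most abundant of a growing cell. Most of these messages start with a terminal oligopyrimidine (TOP) stretch, a C followed by an unbroken run of C and T, through which the growth kinase mTOR and the RNA-binding protein LARP1 set their translation and stability. In cancer cells they follow growth rate, and free RPL5 and RPL11 can bind MDM2 and so stabilise p53.

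Because the members are defined by function, it was first asked how far they share this start. RefSeq start sites (GRCh38.p14) were at hand for 63 of the 78 symbols. Of these, 46 (73.0%) had at least 1 listed start with a C followed by at least 4 further C or T letters, read on the gene's own strand, against 1404 of all 27305 symbols in the same table (5.14%) and 6 of 70 mitochondrial ribosomal protein symbols (8.57%). The 13 starts that follow are shown because the expression results turn on these genes: RPS21, RPS29, RPS25, RPS3 and RPL36AL had the 5 largest falls in PC3 gRNA 10 cells, RPL12 had the largest rise in DU145 gRNA 2 cells, RPL14, RPL41 and RPS26 stood higher in PC3 gRNA 10 cells, and RPSA, RPL24, RPL35A and RPL29 belong to the chromosome 3 members that fell in 22Rv1. Each line gives 35 bases before the start and 15 from it on, 5′ to 3′, with the pyrimidine run from the start in capitals; where several starts were listed, the one with the longest run was taken.
RPS21 (chr20:62387068-62387117, plus strand): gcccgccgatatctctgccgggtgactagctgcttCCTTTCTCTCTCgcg
RPS29 (chr14:49598696-49598745, minus strand): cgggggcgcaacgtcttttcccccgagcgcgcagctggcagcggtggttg
RPS25 (chr11:119018329-119018378, minus strand): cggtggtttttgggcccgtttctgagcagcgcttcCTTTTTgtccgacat
RPS3 (chr11:75399483-75399532, plus strand): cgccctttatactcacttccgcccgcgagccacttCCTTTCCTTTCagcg
RPL36AL (chr14:49620612-49620661, minus strand): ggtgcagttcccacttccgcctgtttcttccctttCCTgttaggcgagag
RPL12 (chr9:127451392-127451441, minus strand): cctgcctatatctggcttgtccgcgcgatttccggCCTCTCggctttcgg
RPL14 (chr3:40457304-40457353, plus strand): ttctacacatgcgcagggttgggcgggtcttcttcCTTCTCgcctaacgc
RPL41 (chr12:56116598-56116647, plus strand): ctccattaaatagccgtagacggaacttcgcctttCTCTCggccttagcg
RPS26 (chr12:56041883-56041932, plus strand): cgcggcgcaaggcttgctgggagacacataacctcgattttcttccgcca
RPSA (chr3:39406685-39406734, plus strand): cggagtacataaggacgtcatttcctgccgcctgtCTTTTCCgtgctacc
RPL24 (chr3:101686704-101686753, minus strand): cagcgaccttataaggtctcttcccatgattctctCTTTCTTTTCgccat
RPL35A (chr3:197950155-197950204, plus strand): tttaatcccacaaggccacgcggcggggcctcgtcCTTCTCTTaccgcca
RPL29 (chr3:51995881-51995930, minus strand): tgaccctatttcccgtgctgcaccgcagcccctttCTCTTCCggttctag
RPS29 and RPS26 have no capitals, since no listed start of theirs is a C, and RPL36AL has a run of 3 letters. The other 10 have runs of 5 to 12 letters. RPS29, which fell, and RPS26, which rose, both lack the run, while RPS21, which fell, and RPL41, which rose, both have it. These matches describe letters in this window.

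The libraries held 17958558 to 20650819 counts. The targeted gene was checked first: RIPK2 stood at 16.7 ± 1.29 CPM (read counts scaled to a common library size by TMM; mean ± SD, n = 3) in 22Rv1 controls against 8.69 ± 0.633 with gRNA 1 and 5.38 ± 0.189 with gRNA 10. In DU145 it was 42.4 ± 2.67 against 11.8 ± 1.77 with gRNA 2 and 34.8 ± 1.51 with gRNA 10, and in PC3 60.4 ± 1.74 against 20.6 ± 0.946 with gRNA 2 and 27.2 ± 1.51 with gRNA 10. In each line every RIPK2-targeted library lay below every control, and in DU145 the message with gRNA 10 lay closest to its control; RNA levels do not report on the protein. Leukocyte markers stayed at or under 3.03 CPM and endothelial markers at or under 9.81. Fibroblast markers summed to 9.14 to 11.5 CPM in 22Rv1 controls, 12.8 to 31.0 with gRNA 1 and 26.3 to 28.1 with gRNA 10. In DU145 the fibroblast sum was 14.3 to 15.4 in controls, 5.86 to 12.5 with gRNA 2 and 24.7 to 31.1 with gRNA 10. In PC3 it was 64.5 to 66.4 in controls, 55.4 to 66.3 with gRNA 2 and 70.2 to 73.9 with gRNA 10. The 5 epithelial markers summed to 827 to 883 CPM in 22Rv1 controls, 1004 to 1023 with gRNA 1 and 1045 to 1078 with gRNA 10. In DU145 their sum was 892 to 944 in controls, 1634 to 3063 with gRNA 2 and 1539 to 1664 with gRNA 10. In PC3 it was 1213 to 1271 in controls, 1394 to 1427 with gRNA 2 and 2372 to 2556 with gRNA 10. The sum lay above the controls with every guide, but single markers differed. In 22Rv1, 4 of the 5 were called higher and 1 lower with gRNA 1, and 2 higher and 2 lower with gRNA 10. In DU145, 4 were higher with gRNA 2 and 2 with gRNA 10, and none was called lower. In PC3, 2 were higher and 1 lower with gRNA 2, and 4 higher and 1 lower with gRNA 10. The prostate luminal markers summed to 947 to 1767 CPM in 22Rv1 and to 1019 to 1545 in PC3, whose table lists 6 of the 7, but to 17.3 to 30.7 in DU145, where these defining markers were close to absent. Their sum was lower with each guide than in controls in 22Rv1 and PC3 and higher in DU145. In PC3 it was nearly all HOXB13 (982 to 1527 CPM), which fell with both guides. Of the 4 luminal markers tested there, 3 were higher and 1 lower with gRNA 10, and 2 were higher and 2 lower with gRNA 2. The part of these marker changes in the results was not tested. A pair of libraries stood apart. Replicate 3 of 22Rv1 gRNA 1 had 16.7% of its counts on genes of the mitochondrial genome, against 0.515% to 4.69% elsewhere, and replicate 3 of DU145 gRNA 2 had a member share of 6.01% against 4.82% and 4.23% in its group.

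The 78 genes together held between 2.72% and 7.12% of a library's counts. In 22Rv1 the control libraries gave 7.12%, 6.39% and 7.01%, those with gRNA 1 5.92%, 6.17% and 5.27%, and those with gRNA 10 6.50%, 6.30% and 6.35%. All gRNA 1 libraries lay under the controls, while those with gRNA 10 overlapped the lowest control. With the mitochondrial genes left out of the total, the 22Rv1 means were 6.91% ± 0.379 in controls, 6.22% ± 0.155 with gRNA 1 and 6.51% ± 0.0978 with gRNA 10. DU145 controls gave 4.71%, 4.67% and 4.71% and gRNA 10 5.06%, 5.15% and 5.22%, without overlap, and gRNA 2 straddled its controls. In PC3 the controls held 4.68%, 4.22% and 4.45%, the gRNA 2 libraries 4.76%, 4.56% and 4.93%, and the gRNA 10 libraries 3.00%, 2.72% and 2.91%. The gRNA 10 mean of 2.88% ± 0.143 was 0.647 of the PC3 control mean, and these were the 3 lowest shares of the 27 libraries. The share of the mitochondrial genome moved as well: in PC3 it was 4.54% ± 0.133 in controls, 4.45% ± 0.128 with gRNA 2 and 3.06% ± 0.151 with gRNA 10, and in DU145 1.29% ± 0.0316 in controls, 2.25% ± 0.580 with gRNA 2 and 2.64% ± 0.165 with gRNA 10 (SD, n = 3). With mitochondrial genes out of the total the PC3 gRNA 10 share was 0.637 of its control. Mitochondrial ribosomal proteins, which serve another ribosome, kept 0.427% ± 0.0105 in PC3 controls and 0.428% ± 0.0126 with gRNA 10. Counting error is small beside these differences: the 95% Wilson interval of any share reached at most 0.0116 percentage points to either side, which covers counting error only. In bulk RNA, fewer cells that express a gene and less of its RNA per cell cannot be told apart.

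**Figure D1:**
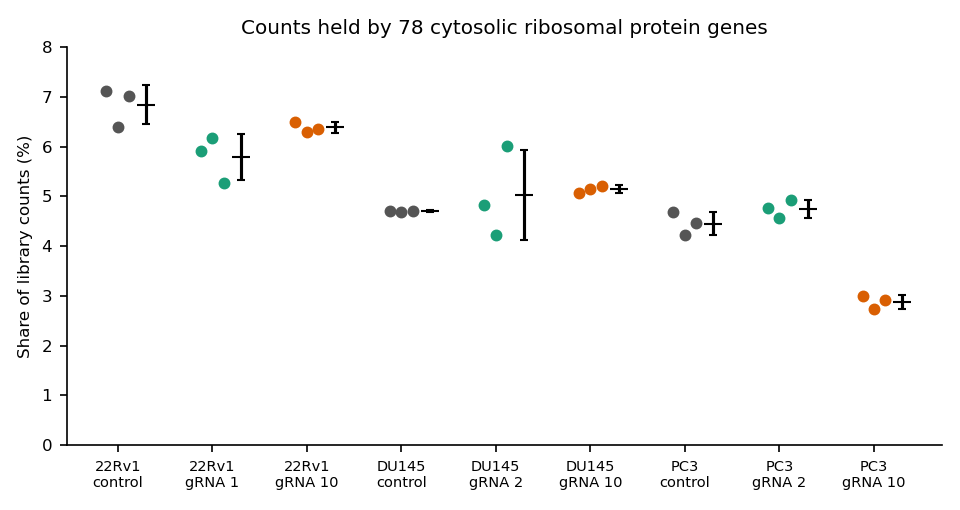
Share of each library's counts held by the 78 cytosolic ribosomal protein genes (vertical axis, percent) for the 3 libraries of each of the 9 groups (points), with the group mean and SD beside them. The 3 PC3 gRNA 10 libraries sit between 2.72% and 3.00%, under all others, and the DU145 gRNA 2 libraries spread from 4.23% to 6.01%.

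The members did not move alike in the 3 lines: most fell in PC3 with gRNA 10, a subset on chromosome 3 fell in 22Rv1 with both guides, and those that passed the test in DU145 rose. Of the 78, 71 fell and 3 rose with gRNA 10 in PC3 at an adjusted p under 0.05 (edgeR's quasi-likelihood test, Benjamini-Hochberg over all genes tested), where 73.5% of all genes tested were called, 37.9% as higher and 35.7% as lower. Their median log2 change was -0.72, against 0.01 for all genes tested. With gRNA 2 in PC3, 17 rose and 16 fell, with a median of 0.03 (all genes: 63.6% called, 32.1% higher, 31.5% lower). Among 22Rv1 members, 4 rose and 25 fell with gRNA 1, with a median of -0.15 (all genes: 48.6% called, 25.7% higher, 22.9% lower). With gRNA 10 in 22Rv1, 5 rose and 14 fell, with a median of -0.04 (all genes: 40.6% called, 20% higher, 20.6% lower). DU145 had 9 rises and no fall with gRNA 2, with a median of 0.14 (all genes: 34.3% called, 17.2% higher, 17.1% lower). With gRNA 10 in DU145, 18 rose and none fell, with a median of 0.16 (all genes: 40.1% called, 20.3% higher, 19.8% lower). So the members' share of calls was below that of all genes in each contrast but PC3 gRNA 10. By direction, falls in PC3 gRNA 10 (91.0% of members) and 22Rv1 gRNA 1 (32.1%) were above the background, and rises in DU145 gRNA 10 (23.1%) were near it. The falls with gRNA 1 in 22Rv1 comprised all 7 members on chromosome 3 and 18 of the other 71.

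Counting members whose 3 guide libraries all lay on 1 side of the 3 controls needs no fitted spread. In 22Rv1 3 members lay wholly above and 29 wholly below with gRNA 1 (28.1% and 27.5% of all genes), and 11 above and 24 below with gRNA 10 (32.1% and 32.1%). In DU145 16 lay above and 1 below with gRNA 2 (22.7% and 24%), and 46 above and 10 below with gRNA 10 (34.3% and 34.3%). In PC3 14 lay above and 11 below with gRNA 2 (34% and 33.7%), and 2 above and 71 below with gRNA 10 (38.3% and 36.5%). The guides of a line share their controls, so these counts are not independent. No member was called in a single direction in 5 or 6 of the contrasts. RPL6 and RPS26 rose in 4, and RPL12, RPL32 and RPL35A fell in 4. How often other genes recur in this way is not given here, so no result about the members is drawn from it.

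**Figure D2:**
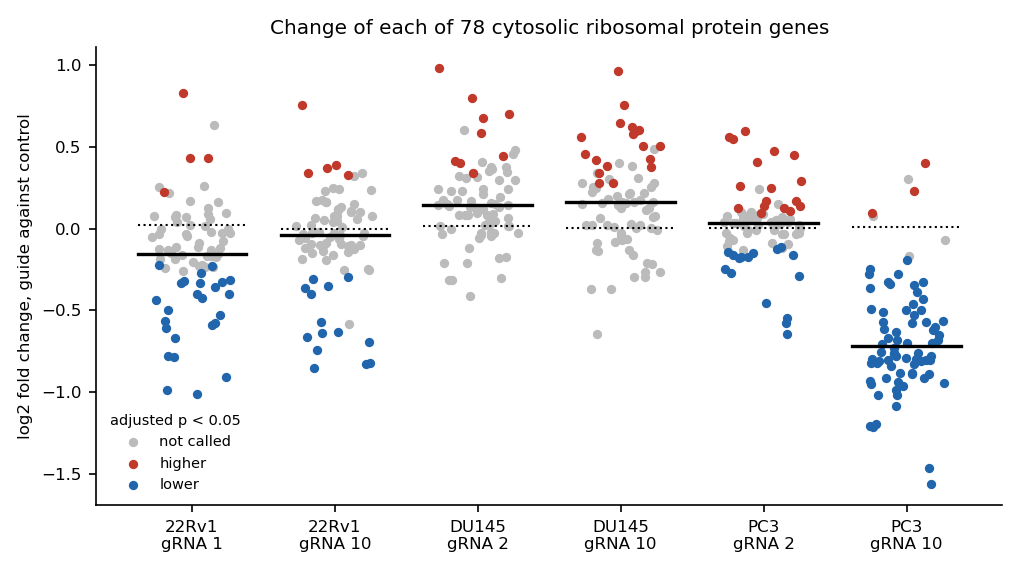
Log2 fold change of each of the 78 genes (points) in each of the 6 comparisons of a guide with its control, coloured by the call at an adjusted p of 0.05. Solid bars mark the members' median and dotted bars that of all genes tested; the PC3 gRNA 10 column lies lowest, with a median of -0.72.

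Both subunits fell in PC3 gRNA 10 cells. Of the large subunit proteins, 40 of 44 fell and 2 rose, with a median log2 change of -0.71. Of the small subunit proteins, 28 of 31 fell and 1 rose, with a median of -0.78. All 3 stalk proteins, which recruit elongation factors to the ribosome, fell, by a median of 0.68 on the log2 scale. The ratio of large to small subunit counts was 1.56 ± 0.0110 in PC3 controls, 1.54 ± 0.00708 with gRNA 2 and 1.64 ± 0.00288 with gRNA 10, so that the small subunit lost somewhat more. The 3 gRNA 10 libraries gave 1.64 each and no control exceeded 1.56.

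The deepest falls were in 4 small subunit genes. RPS21, a small protein of the small subunit, stood at 251, 221 and 229 CPM in PC3 controls, at 225, 213 and 221 with gRNA 2, and at 87.4, 72.8 and 77.0 with gRNA 10. All gRNA 10 values lay far under the other 6, which overlapped each other. The log2 change with gRNA 10 was -1.56 ± 0.0554 (SE; edgeR adjusted p = 8.77e-17). RPS29, a small zinc-binding protein of the head of the small subunit mutated in some Diamond-Blackfan anemia families, went from 281, 216 and 228 CPM to 92.4, 77.8 and 92.0 with gRNA 10 (log2 change -1.47 ± 0.0763, edgeR adjusted p = 8.73e-14). RPS25, known for its part in translation from internal ribosome entry sites, went from 522, 480 and 490 CPM to 233, 195 and 215 (-1.21 ± 0.0553, edgeR adjusted p = 8.05e-15). For RPS3, which lines the entry of the messenger RNA channel and also has roles in DNA repair, the controls held 1209, 1094 and 1126 CPM and the gRNA 10 libraries 513, 477 and 496 (-1.21 ± 0.0411, edgeR adjusted p = 4.31e-17). RPS3 was slightly higher with gRNA 2, at 1312, 1235 and 1303 CPM (0.17 ± 0.0402, edgeR adjusted p = 0.000999). In none of these 4 genes did the gRNA 10 libraries overlap the controls.

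Of the 7 members that did not fall, RPS26, RPL41 and RPL14 were called higher; the other 4, RPS10 (0.30), RPS15A (0.08), RPL26 (-0.07) and RPL17 (-0.17), are low in counts and were not called. RPS26, which contacts the messenger RNA upstream of the start codon, rose from 164, 136 and 150 CPM to 211, 192 and 192 with gRNA 10 (0.40 ± 0.0525, edgeR adjusted p = 4.19e-07), with gRNA 2 at 171, 164 and 171. RPL41, the shortest ribosomal protein, rose from 455, 395 and 448 CPM to 537, 491 and 492 (0.23 ± 0.0489, edgeR adjusted p = 0.000235) but was lower with gRNA 2, at 380, 372 and 407 (-0.16 ± 0.0492, edgeR adjusted p = 0.00635). RPL14, a large subunit protein, had 543, 484 and 510 CPM in controls and 550, 529 and 564 with gRNA 10, and these ranges overlapped. Its call (0.10 ± 0.0412, edgeR adjusted p = 0.0411) was lost with DESeq2 (adjusted p = 0.0579), with only control and gRNA 10 libraries in the fit (adjusted p = 0.0717), and without any 1 of control replicates 2 and 3 and gRNA 10 replicates 1 and 3. RPS26 and RPL41 are neighbours on chromosome 12.

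**Figure D3:**
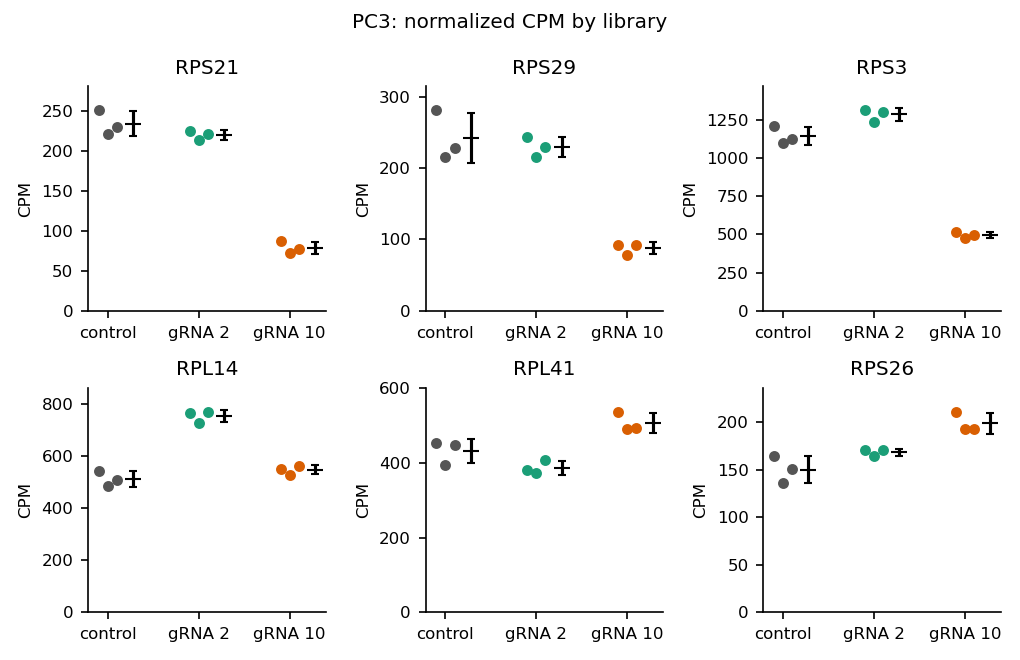
Normalized CPM (vertical axis, from 0) of 6 members in the 9 PC3 libraries by group, with mean and SD. RPS21, RPS29 and RPS3 are low in all gRNA 10 libraries, while RPL14 is high with gRNA 2 and RPL41 and RPS26 are highest with gRNA 10.

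RPLP0 and RPL13A, often used as quantitative PCR references, fell as well. RPLP0, the base of the stalk, held 2345, 2205 and 2304 CPM in PC3 controls, 2474, 2052 and 2569 with gRNA 2, and 1343, 1213 and 1367 with gRNA 10 (-0.81 ± 0.0590, edgeR adjusted p = 3.66e-11). RPL13A, also known for a regulatory complex that represses inflammatory messages, held 1631, 1453 and 1544 CPM against 801, 726 and 805 with gRNA 10 (-0.99 ± 0.0436, edgeR adjusted p = 4.47e-15). RPS6, the substrate of the S6 kinases downstream of mTOR, went from 591, 545 and 572 CPM to 326, 305 and 334 (-0.82 ± 0.0429, edgeR adjusted p = 8.85e-14). None of these 3 genes was called with gRNA 2, with log2 changes of 0.05, 0.02 and 0.09. RPL22 and RPS27, each with a close paralog, fell with gRNA 10 by 0.28 and 0.78 on the log2 scale.

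PC3 gRNA 2 cells showed a different picture, with rises and falls in nearly equal number. RPL5 had 449, 420 and 418 CPM in controls, 670, 603 and 677 with gRNA 2, and 362, 346 and 375 with gRNA 10. Its rise with gRNA 2 (0.60 ± 0.0444, edgeR adjusted p = 8.03e-11) and its fall with gRNA 10 (-0.25 ± 0.0447, edgeR adjusted p = 3.49e-05) put the 3 groups in 3 separate ranges. RPL11, its partner in the MDM2-binding particle, went the same ways. It moved from 375, 324 and 342 CPM to 488, 456 and 505 with gRNA 2 (0.48 ± 0.0510, edgeR adjusted p = 3.3e-08). With gRNA 10 it held 294, 259 and 270 CPM (-0.34 ± 0.0516, edgeR adjusted p = 3.94e-06). Both RPL5 and RPL11 lie on chromosome 1. Of 1453 other tested genes there, 74.9% were higher with gRNA 2 (median log2 change 0.44) and 70.8% with gRNA 10 (median 0.44). RPL14 (766, 727 and 772 CPM with gRNA 2) rose by 0.56 and RPSA, a small subunit protein that also serves as the laminin receptor, by 0.55 on the log2 scale. Among falls, the stalk protein RPLP2 went from 468, 382 and 443 CPM to 259, 264 and 303 (-0.65 ± 0.0677, edgeR adjusted p = 2.32e-08). RPL37A, RPL27A and RPS13 fell by 0.58, 0.54 and 0.46, with no overlap between gRNA 2 and control libraries. Compared directly, gRNA 10 lay under gRNA 2 in 71 members and over it in 2, RPL41 and RPS26, with a median log2 difference of -0.78 (all genes: 73.4% called, 36.9% higher, 36.5% lower).

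In 22Rv1 the members on chromosome 3 fell together. All 7 members on chromosome 3 (RPL14, RPL15, RPL24, RPL29, RPL32, RPL35A and RPSA) fell with both guides, by medians of -0.79 with gRNA 1 and -0.69 with gRNA 10. The other 71 had medians of -0.12 and -0.03, with 18 and 7 falls and 4 and 5 rises, so that 7 of the 25 falls with gRNA 1 and 7 of the 14 with gRNA 10 were on chromosome 3. The fall was not limited to ribosomal genes: of 853 other tested genes on chromosome 3, 63.0% were lower with gRNA 1 (median log2 change -0.59) and 63.9% with gRNA 10 (median -0.62). This grouping was known from earlier results of these data, and no test of it is given.

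RPL15, a large subunit protein mutated in some Diamond-Blackfan anemia families, held 2322, 2034 and 2335 CPM in 22Rv1 controls, 1097, 1119 and 1095 with gRNA 1, and 1247, 1203 and 1251 with gRNA 10. Control and knockout values lay far apart (-1.01 ± 0.0885 and -0.85 ± 0.0883, edgeR adjusted p = 8.45e-06 and 2.89e-05). RPSA, the member with the most counts in 22Rv1 controls, went from 3571, 3176 and 3438 CPM to 1900, 2046 and 1198 with gRNA 1 (-0.99 ± 0.170, edgeR adjusted p = 0.000879) and to 1992, 1855 and 1889 with gRNA 10 (-0.83 ± 0.169, edgeR adjusted p = 0.00279). The low value of 1198 CPM was the library rich in mitochondrial counts. RPL35A, mutated in some Diamond-Blackfan anemia families, went from 568, 577 and 578 CPM to 307, 329 and 282 with gRNA 1 (-0.91) and to 397, 349 and 364 with gRNA 10 (-0.63). RPL14 fell by 0.79 and 0.69, RPL24 by 0.78 and 0.66, RPL29 by 0.61 and 0.74, and RPL32 by 0.59 and 0.64, each without overlap.

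Outside chromosome 3, RPL5 fell with both guides, from 1007, 1225 and 1023 CPM to 745, 773 and 683 with gRNA 1 (-0.56 ± 0.101, edgeR adjusted p = 0.00111) and 877, 827 and 852 with gRNA 10 (-0.35 ± 0.101, edgeR adjusted p = 0.0179). RPL13A fell by 0.33 and 0.40. RPL41 rose from 653, 533 and 567 CPM to 800, 843 and 719 with gRNA 1 (0.43 ± 0.105, edgeR adjusted p = 0.0068) and to 1033, 925 and 1009 with gRNA 10 (0.76 ± 0.106, edgeR adjusted p = 0.000234). Its neighbour RPS26 rose by 0.43 and 0.33, and RPL6, a large subunit protein, by 0.22 and 0.34. RPL41, RPS26 and RPL6 all lie on chromosome 12, and the rise was not limited to ribosomal genes. Of 795 other tested genes there, 50.8% were higher with gRNA 1 (median log2 change 0.40) and 53.6% with gRNA 10 (median 0.44). The RPL6 rise with gRNA 1 was lost when only the groups compared were fitted (adjusted p = 0.129, edgeR) and without any 1 of 5 of the 6 libraries. RPS19 rose with gRNA 10 by 0.37 (edgeR adjusted p = 0.0371), a call that was lost in 5 of the 6 fits that leave out a library. RPL17, called higher with gRNA 1, rested on few counts and on replicate 3, at 5.53 CPM against 2.29 and 3.08 in its group and 1.81, 2.37 and 1.93 in controls; it was not called without that library, nor without any 1 of the 3 controls.

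Between the guides 9 members differed. RPL36, a large subunit protein encoded on chromosome 19, held 406, 329 and 379 CPM in 22Rv1 controls and 360, 385 and 426 with gRNA 1, which overlap. With gRNA 10 it held 224, 200 and 207, a log2 change of -0.82 ± 0.105 (edgeR adjusted p = 0.00013). Compared directly, gRNA 10 lay 0.89 below gRNA 1 on the log2 scale, the 1 member called lower in that contrast; the other 8 were higher, among them RPS3A, RPS27A and RPL22 by 0.47, 0.40 and 0.39 (all genes: 35.5% called, 16.7% higher, 18.8% lower). Replicate 3 of gRNA 1 moved these counts: without it, 40 members were called with gRNA 1, 30 with gRNA 10 and 28 between the guides. Without gRNA 10 replicates 1, 2 and 3 in turn the last count was 4, 3 and 4. RPLP0 was an example: its gRNA 1 libraries held 2958, 3229 and 1699 CPM against 2876, 2661 and 2790 in controls. The share of all genes called in the refits without a library is not given here.

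In DU145 every called member rose. RPS7, a small subunit protein that can also bind MDM2, held 349, 393 and 364 CPM in controls, 495, 470 and 696 with gRNA 2 (0.59 ± 0.134, edgeR adjusted p = 0.00757), and 726, 724 and 705 with gRNA 10 (0.96 ± 0.135, edgeR adjusted p = 0.000319). Neither guide overlapped its controls. RPL38, known for its role in the translation of homeobox messages during patterning of the embryo, went from 206, 192 and 181 CPM to 328, 336 and 312 with gRNA 10 (0.75 ± 0.142, edgeR adjusted p = 0.0019). RPL18 (332, 355 and 367 CPM to 505, 577 and 568) and RPL31 (232, 235 and 230 to 356, 360 and 355) rose by 0.65 and 0.62. RPS6 rose with both guides, by 0.41 with gRNA 2 and 0.38 with gRNA 10, and RPL13A with gRNA 10 by 0.43. With gRNA 10 the calls of RPL18, RPS6 and RPL13A were lost in each of the 6 fits that leave out a control or gRNA 10 library.

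With gRNA 2 the leading genes were others. RPL12, a protein at the base of the stalk, held 628, 554 and 646 CPM in DU145 controls and 1026, 926 and 1663 with gRNA 2 (0.98 ± 0.188, edgeR adjusted p = 0.00288), but 718, 688 and 774 with gRNA 10, which was not called (0.25, edgeR adjusted p = 0.304). Between the guides RPL12 differed by -0.73 (gRNA 10 minus gRNA 2, edgeR adjusted p = 0.0111). RPL6 went from 677, 714 and 677 to 1037, 915 and 1650 CPM (0.80), RPS2 from 1955, 1938 and 2120 to 3005, 2306 and 4474 (0.70), RPL9 from 491, 471 and 537 to 769, 642 and 980 (0.67) and RPLP0 from 2100, 1993 and 2135 to 2635, 2308 and 3288 (0.40). The highest value was replicate 3 in each of these genes. The median coefficient of variation of the members at 20 CPM or more was 25% in this group, against 3.81% to 7.61% in the other 8.

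The DU145 counts depend on that library. Without gRNA 2 replicate 3, members called with gRNA 2 went from 9 to 28, with 11 higher and 17 lower, and those with gRNA 10 from 18 to 47, with 38 higher and 9 lower, since the spread is shared. Fitting only control and gRNA 10 libraries called 46 as higher and 11 as lower. Without gRNA 2 replicate 2, 29 rose and none fell. Leaving out control replicates 1, 2 and 3 in turn gave 4, 4 and 5 for gRNA 2 and 9, 8 and 6 for gRNA 10, and leaving out gRNA 10 replicates 1, 2 and 3 gave 10, 10 and 8 for gRNA 10. Between the guides 5 members were higher and 4 lower with gRNA 10 (all genes: 39.1% called, 19.8% higher, 19.3% lower), a count that was 42 without gRNA 2 replicate 3, 4 without gRNA 2 replicate 1, and 2, 1 and 1 without each gRNA 10 library in turn. The share of all genes called in these refits is not given here. The changed counts therefore cannot be read as a result about the members alone. RPS7 kept a log2 change of 0.96 and RPL38 one of 0.75 with gRNA 10 when gRNA 2 replicate 3 was left out.

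gRNA 10 was used in all 3 lines, so its effect could be compared between them in 1 fit of all 27 libraries (16322 genes tested). The effect was more negative in PC3 than in 22Rv1 in 56 members and more positive in 3 (all genes: 47.7% called, 23.8% more positive, 23.9% more negative). It was more negative in PC3 than in DU145 in 65 and more positive in none (all genes: 48% called, 24.1% more positive, 23.9% more negative). In DU145 it was more positive than in 22Rv1 in 27 and more negative in 3 (all genes: 44.8% called, 22.6% more positive, 22.1% more negative). RPS21 differed most, by -1.94 ± 0.226 between PC3 and 22Rv1 (edgeR adjusted p = 9.36e-08) and by -2.15 ± 0.227 between PC3 and DU145 (edgeR adjusted p = 1.8e-08). RPS3 and RPS25 followed between PC3 and DU145, by -1.69 and -1.62. RPL14, RPSA and RPL15, which fell in 22Rv1 with the rest of chromosome 3, were the 3 whose effect was more positive in PC3, by 0.75, 0.51 and 0.49. The RPSA difference (edgeR adjusted p = 0.0341) was lost in 8 of the fits that leave out a library. RPS19 differed by -1.43 between PC3, where it fell by 1.02, and 22Rv1, where its rise of 0.37 was lost in most leave-outs.

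Even before RIPK2 was targeted the lines differed in their ribosomal protein messages. By CPM scaled within each line, 54 of the 78 genes had their highest control level in 22Rv1, 13 in PC3 and 11 in DU145. Such CPM are not on a common scale across lines, so this ranking is approximate. The calls between control lines came from the fit of all 27 libraries. In DU145 controls 58 members were lower and 6 higher than in 22Rv1 (all genes: 75.9% called, 37.9% higher, 38% lower). In PC3 controls 47 were lower and 13 higher than in 22Rv1 (all genes: 80.6% called, 39.4% higher, 41.1% lower). In PC3 controls 29 were higher and 28 lower than in DU145, with a median of 0.02 (all genes: 75.9% called, 37.1% higher, 38.8% lower). Line, table and preparation cannot be told apart here.

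RPS3A, a small subunit protein near the messenger RNA exit, had 1718, 1921 and 1709 CPM in 22Rv1 controls, 355, 357 and 357 in DU145 and 434, 387 and 404 in PC3. It was the largest difference of DU145 from 22Rv1 (-2.32 ± 0.116, edgeR adjusted p = 1.11e-15). RPS27, a zinc-binding protein of the small subunit, had 1521, 1338 and 1274 CPM in DU145, 1028, 963 and 909 in 22Rv1 and 282, 225 and 262 in PC3, so that all 3 lines were separate (PC3 against DU145, -2.28 ± 0.116, edgeR adjusted p = 1.79e-15). RPS24, a Diamond-Blackfan anemia gene, ran the other way, with 2548, 2182 and 2305 CPM in PC3 against 711, 681 and 670 in DU145 (1.92 ± 0.122, edgeR adjusted p = 1.73e-13). RPL36AL, a retrogene copy of RPL36A, had 103, 101 and 104 CPM in 22Rv1, 283, 262 and 270 in DU145 and 231, 196 and 209 in PC3. Its differences from 22Rv1 were 1.41 and 1.20 on the log2 scale in the fit of all 27 libraries. Log2 differences between lines need not match ratios of the CPM given here, which were scaled within each line. RPL36A itself gave only 44 to 120 counts per library in all lines. Together with RPS10, with 8 to 47 counts, RPL17, with 23 to 93, RPL26, with 51 to 332, and RPS15A, with 147 to 646, it had the fewest counts; the other 73 members had 573 or more in every library. How reads shared with overlapping genes or with pseudogenes were counted is not given in the sources used here, and the values of these 5 genes are uncertain for that reason; rows of ribosomal protein pseudogenes held 0.0493% to 0.0895% of counts.

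Where a member lies went along with how it changed. For each member the median log2 change of the other tested genes whose start lies within 2 megabases was taken (GENCODE 29, GRCh38). Across the 78 members the Spearman correlation of their own change with that of the neighbours was 0.51 with gRNA 1 and 0.45 with gRNA 10 in 22Rv1, 0.41 with gRNA 2 and 0.73 with gRNA 10 in DU145, and 0.54 with gRNA 2 and 0.63 with gRNA 10 in PC3. These are descriptions: all points of a comparison come from the same libraries, and some members share neighbours. In PC3 gRNA 2 cells RPL5 (0.60) lay among 22 genes with a median of 0.58 and RPLP2 (-0.65) among 55 with a median of -0.53. In PC3 gRNA 10 cells RPS26 and RPL41 (0.40 and 0.23) lay among 87 genes of which 75 rose, with a median of 0.94. RPL14 (0.10) lay among 17 that all rose, with a median of 0.68. At the other end RPS29 and RPL36AL (-1.47 and -1.19) lay among 25 genes of which 22 fell, with a median of -0.80, and RPS21 (-1.56) among 51 with a median of -0.66.

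In PC3 gRNA 10 cells the members stood apart from their surroundings: 76 of 78 members lay below their neighbours, by a median of 0.73 on the log2 scale, while the neighbours' own median was -0.01. Taking the neighbours' change off each member narrowed the SD among members from 0.36 to 0.26. In PC3 gRNA 2 cells 33 lay below and 45 above, with a median difference of 0.04. Smaller offsets were present in the other lines. In 22Rv1, 59 lay below with gRNA 1 (median difference -0.20) and 47 with gRNA 10 (-0.05). In DU145, 61 lay above with gRNA 2 (0.19) and 64 with gRNA 10 (0.22). The SD did not narrow with gRNA 2 in DU145, at 0.255 before and 0.258 after. RPL36 in 22Rv1 gRNA 10 cells (-0.82) had 78 neighbours with a median of 0.14, and RPL12 in DU145 gRNA 2 cells (0.98) had 62 with a median of 0.12, so these stood away from their surroundings. RPL15 in 22Rv1 gRNA 1 cells (-1.01) stood with them, among 11 genes with a median of -1.22. Copy number was not measured, and its part in these values was not tested.

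**Figure D4:**
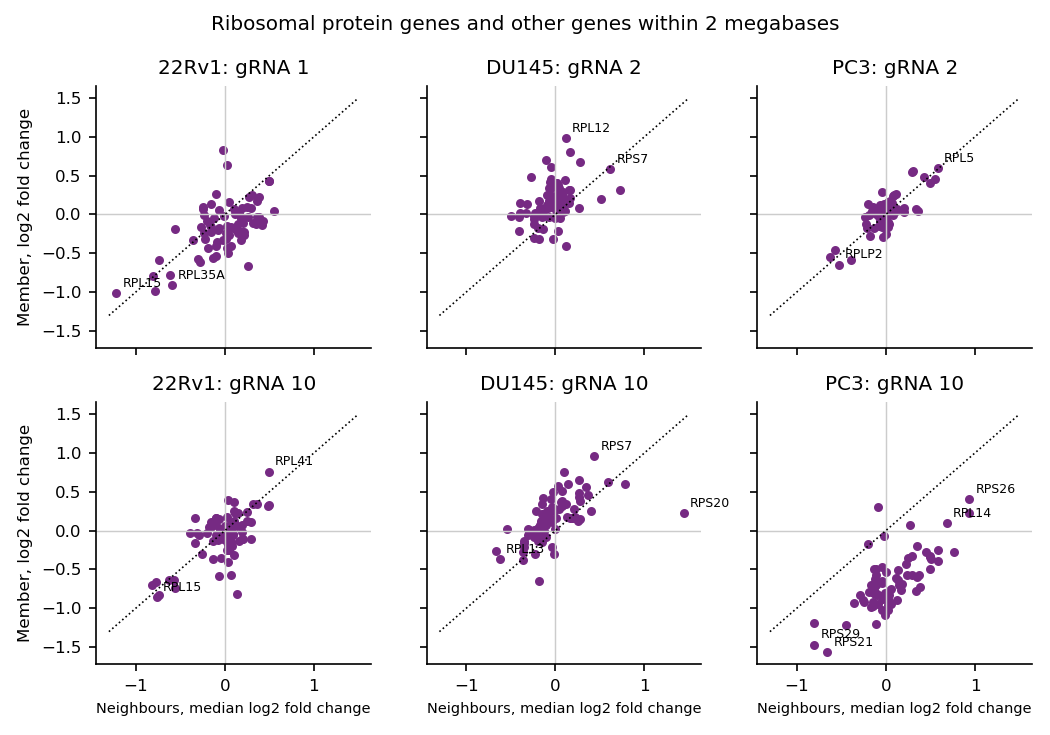
Log2 fold change of each member (vertical axis) against the median log2 fold change of other tested genes within 2 megabases (horizontal axis), 1 panel per guide and line; the dotted line marks equality. In PC3 gRNA 10 cells the points run parallel to the line but lie below it in 76 of 78 cases, and in PC3 gRNA 2 cells they lie along it.

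Genes that share the TOP start or the pathway were read from lists. Of 21 other TOP messages of translation, 19 (90.5%) fell and 1 rose with gRNA 10 in PC3, where 35.7% of all genes fell and 37.9% rose (median log2 change -0.45; RACK1 is also a part of the ribosome). Among them the elongation factors EEF1A1 and EEF2 fell by 0.75 and 0.71 and the ribosome-bound scaffold RACK1 by 0.75. Of the 11 snoRNA host genes, whose spliced RNAs carry a TOP, 9 (81.8%) fell and none rose (median -0.43). Of 78 mitochondrial ribosomal proteins 39 (50%) were lower and 20 (25.6%) higher (median -0.11), and of 664 short genes that are not members 229 were lower and 224 higher (median 0.00). Of 63 tested pseudogenes of the members, 29 were lower and 2 higher (median -0.58), which their shared sequence makes hard to separate from the members' own reads. Of 14 genes of TOP control and growth signalling, 4 rose and 5 fell in PC3 gRNA 10 cells; LARP1 stood at -0.08 and was not called. Of the 14 tested chaperones of ribosomal proteins, 2 (14.3%) rose and 7 (50%) fell.

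In 22Rv1 and DU145 the medians of the other TOP messages and of the members had the same sign: none of 21 rose and 13 fell with gRNA 1 in 22Rv1 (61.9% against 22.9% of all genes; median -0.33), and 1 rose and 4 fell with gRNA 10 (19.0% against 20.6%; median -0.16). In DU145 7 rose with gRNA 2 (33.3% against 17.2%; median 0.35) and 6 with gRNA 10 (28.6% against 20.3%; median 0.21), and none fell. Short genes that are not members leaned the other way with gRNA 1 in 22Rv1, with 221 higher and 74 lower of 671 (median 0.21). In DU145 gRNA 2 cells 8 of 11 snoRNA host genes (72.7%) rose and none fell, with GAS5 higher by 0.88. Among the 46 members with a TOP start the median change in PC3 gRNA 10 cells was -0.79, with 42 lower, and among the 17 with none listed it was -0.61, with 15 lower. In the other 5 contrasts these medians nearly coincided, the widest gap being 0.13 against 0.12 with gRNA 2 in DU145. The calls were less alike. In DU145, 12 of the 46 and 1 of the 17 rose with gRNA 10, and 4 and 3 with gRNA 2. With gRNA 1 in 22Rv1, 1 of the 46 rose and 16 fell, while 3 of the 17 rose and 7 fell.

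**Figure D5:**
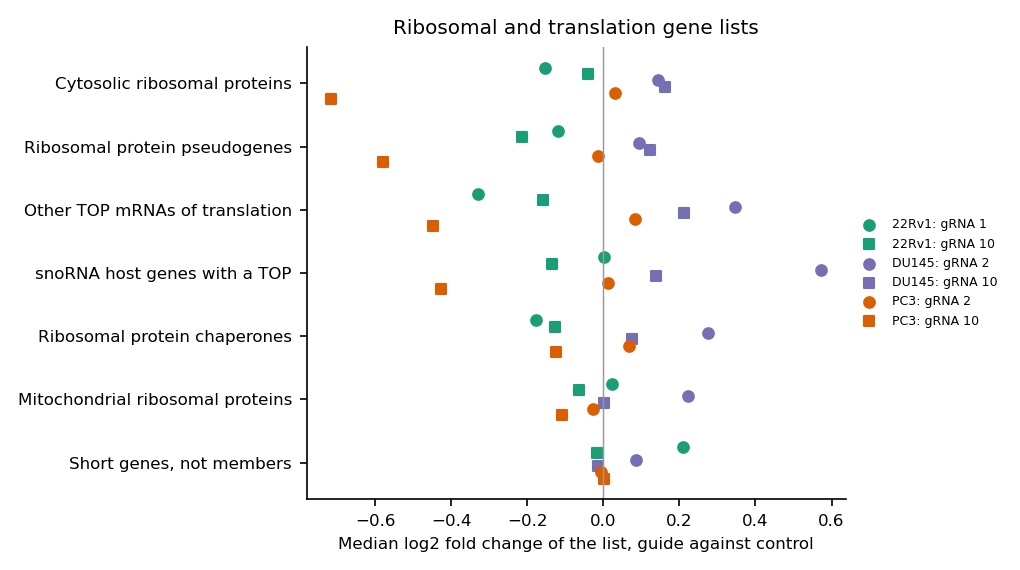
Median log2 fold change of 7 gene lists (rows) with each guide (circles for gRNA 1 or gRNA 2, squares for gRNA 10; colours for the lines). In PC3 gRNA 10 cells the cytosolic ribosomal proteins lie lowest at -0.72, then their pseudogenes and the other TOP messages, while short genes lie at 0.00.

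Some ribosomal proteins and paralogs have symbols outside the rule; of the 8 tested in PC3, 5 fell and 2 rose with gRNA 10 (median -0.24). RPS27L, a paralog of RPS27 that p53 induces, was called higher in all 6 contrasts, by 1.35 and 0.62 with gRNA 1 and gRNA 10 in 22Rv1, 0.45 and 0.66 with gRNA 2 and gRNA 10 in DU145, and 0.40 and 0.30 with gRNA 2 and gRNA 10 in PC3. In 22Rv1 its level was 36.1 ± 3.98 CPM in controls, 91.7 ± 5.68 with gRNA 1 and 55.5 ± 2.11 with gRNA 10 (n = 3). Any part of p53 in the rises of RPS27L was not tested. RPS27 itself was called only in PC3 gRNA 10 cells, where it fell. RPL22L1, the paralog of RPL22, fell with both guides in 22Rv1, by 0.59 and 0.86, and with gRNA 10 in DU145 and PC3, by 0.82 and 0.67. RPL22 fell with gRNA 1 in 22Rv1, by 0.27, and with gRNA 10 in PC3, by 0.28, and was not called elsewhere.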

How the data were processed

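Bulk polyadenylated RNA of control and RIPK2-targeted 22Rv1, DU145 and PC3 cells was sequenced from strand-specific libraries with paired reads of 150 bases, per the labels' protocols. The deposited files are raw read counts per gene symbol, 1 table per line; per the submitters' processing notes, FastQC, STAR and edgeR were used with build hg38, with no version or role given. The strand setting, annotation and handling of shared reads are not given in the sources used here.

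From the deposited counts, rows with the same symbol were summed (6, 2 and 2 symbols), and edgeR 4.0.16 in R 4.3.3 was fitted to the 9 libraries of each line (TMM factors, filterByExpr at min.count 10 and min.total.count 15, quasi-likelihood test, Benjamini-Hochberg adjustment over the 15198, 14908 and 14718 genes tested; called at 0.05). Guide 10 effects and control levels were compared between lines in a fit of all 27 libraries. DESeq2 1.42.0 was an alternative. CPM are TMM-scaled within each line and are not on a common scale across lines. Log2 changes are edgeR's. The standard error given with them was derived from the test, as the absolute log2 change divided by the square root of its F statistic. Scripts were tested on simulated counts.

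The members and lists were chosen with earlier results of these data known; the list of short genes (transcripts of at most 1000 bases) was added afterwards. Named in each guide contrast are up to 4 called members with the largest rise and 4 with the largest fall, with RPL5, RPL11, RPS6, RPLP0, RPL13A, RPL36A, RPL36AL, RPL22 and RPS27 considered throughout, members called in 1 direction in at least 5 contrasts, and up to 4 (control lines) or 3 (gRNA 10 between lines) in each direction; other members named were picked by chromosome or after their values were seen. Libraries of a group differed beyond sampling noise, so none was counted as a duplicate. Alternatives were RLE factors, TMM factors without the members, removal of mitochondrial-genome genes, DESeq2, no low-count filter, a replicate block, only the groups compared, and leaving out each library.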

Additional observations from a re-analysis of the deposited data

Results flagged for a closer look

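The effect of gRNA 10 differed between lines by the interaction test in edgeR, at an adjusted p under 0.05, for 30 members between DU145 and 22Rv1, 59 between PC3 and 22Rv1 and 65 between PC3 and DU145. The differences singled out, on the log2 scale, are as follows. For DU145 minus 22Rv1, RPL24 gave 1.04, RPS7 1.00 and RPL36 0.96, and RPL41 gave -0.85, RPS29 -0.55 and RPLP2 -0.50. For PC3 minus 22Rv1, RPL14 gave 0.75, RPSA 0.51 and RPL15 0.49, and RPS21 gave -1.94, RPS29 -1.67 and RPS19 -1.43. For PC3 minus DU145, RPS21 gave -2.15, RPS3 -1.69 and RPS25 -1.62. The RPS29 and RPLP2 differences between DU145 and 22Rv1 were lost in 7 and 4 of the fits that leave out a library.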

How the results depend on the processing

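RLE factors, TMM factors without the members, removal of mitochondrial-genome genes and no low-count filter left every count of called members within 1.5 times its value. With only the groups compared, the counts were 29 for 22Rv1 gRNA 10, 4 for DU145 gRNA 2, 57 for DU145 gRNA 10 and 1 between the DU145 guides; DESeq2 gave 14 between the 22Rv1 guides, 14 for DU145 gRNA 2 and 14 between the DU145 guides. The cause of the DESeq2 differences was not tested. With mitochondrial-genome genes out of the total, the 22Rv1 gRNA 1 share stood at -0.688 points from control, against -1.05, and that of DU145 gRNA 10 at 0.525, against 0.447. The replicate block gave 74 members for PC3 gRNA 10, 43 for PC3 gRNA 2 and 26 and 20 for 22Rv1 gRNA 1 and gRNA 10; no count moved by over 1.5 times. The labels do not say what a shared number means, and the numbers did not pair the libraries: same-numbered libraries correlated at -0.119 to 0.406 in 22Rv1, -0.266 to 0.1 in DU145 and -0.0695 to 0.108 in PC3, and 3, 2 and 4 of 9 correlated best with their own number.

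Leaving out 1 library gave 23 to 40 members for 22Rv1 gRNA 1, 14 to 30 for gRNA 10 and 3 to 28 between these guides; 4 to 29 for DU145 gRNA 2, 6 to 47 for gRNA 10 and 1 to 42 between them; 29 to 36 for PC3 gRNA 2, 73 to 74 for gRNA 10 and 73 to 74 between them. The 2 fits without the outlying library of the other guide were chosen after seeing the data. Shares of all genes called in the refits of this section are not given here. The counts therefore show only how far the member calls moved. The gRNA 10 effect differed in 27 to 30 members between DU145 and 22Rv1, 53 to 59 between PC3 and 22Rv1 and 61 to 66 between PC3 and DU145.

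The control lines differed in 60 to 64 members between DU145 and 22Rv1, 58 to 60 between PC3 and 22Rv1 and 52 to 56 between PC3 and DU145. The difference of the DU145 gRNA 2 share from control ran from -0.173 points without gRNA 2 replicate 3 to 0.717, and that of PC3 gRNA 10 from -1.69 to -1.46.

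Of the named members under the other settings, 827 values kept direction and call, 13 lost the call and 6 gained one; leaving out 1 library, 788 kept both, 79 lost the call, 10 gained one and 23 turned direction. Direction turned only for members that were not called: RPLP0 in DU145 gRNA 10 was -0.00282 without the low-count filter, and leaving out 1 library gave RPLP0 in 22Rv1 gRNA 1 from -0.25 to 0.15, RPL36A in 22Rv1 gRNA 1 from -0.0982 to 0.45, RPL36AL in 22Rv1 gRNA 1 from -0.00162 to 0.17, RPS6 in 22Rv1 gRNA 10 from -0.0528 to 0.0142, RPL36A in 22Rv1 gRNA 10 from -0.30 to 0.16, RPL36AL in 22Rv1 gRNA 10 from -0.10 to 0.0125, RPL5 in DU145 gRNA 2 from -0.0131 to 0.23, RPL11 in DU145 gRNA 2 from -0.00265 to 0.23, RPL13A in DU145 gRNA 2 from -0.20 to 0.12, RPL36AL in DU145 gRNA 2 from -0.0900 to 0.29, RPLP0 in DU145 gRNA 10 from -0.0243 to 0.0297, RPS27 in DU145 gRNA 10 from -0.0635 to 0.0648, RPLP0 in PC3 gRNA 2 from -0.0138 to 0.14, RPL13A in PC3 gRNA 2 from -0.0212 to 0.0636, RPL36A in PC3 gRNA 2 from -0.0271 to 0.0975 and RPS27 in PC3 gRNA 2 from -0.0466 to 0.12. Windows of 1 or 5 megabases, also chosen later, gave neighbour correlations of 0.35 to 0.66. Depth limits RPS10, RPL17 and RPL36A, at 8 to 120 counts a library.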
